A study of Homo sapiens with 12 samples.

Results

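The 43 cell cycle and mitosis genes described here are rows of a count table of 60583 gene names, chosen by name from a list. They were divided by role into 13 S-phase members, which load, run or supply DNA replication, and 30 mitotic members, which drive entry into mitosis, build the spindle, guard chromosome attachment or divide the cell. All 43 had reads in every library and all 43 passed the filter on low counts. The cells were cardiomyocytes derived from RUES2, an established human embryonic stem cell line that is labelled wild type. On day 50 they were placed on electrospun fibre scaffolds for 3 days and then detached with trypsin for RNA extraction. The PEDOT group was grown on 9.75% PEDOT:PSS/PVA, a scaffold in which a conducting polymer blend is combined with polyvinyl alcohol. The PVA group was grown on 8% PVA, which does not conduct and served as the control. Each scaffold had 3 biological replicates with 2 technical libraries each, which gave 12 libraries of ribodepleted total RNA. The study asked how cardiac gene expression differs after exposure to the conductive scaffold.

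A dividing cell copies its DNA once in S phase and separates the copies in mitosis, and different sets of genes are switched on for each task. E2F factors switch on the S-phase genes, whereas the mitotic genes are switched on later, largely through the DREAM and B-MYB-MuvB complexes and the factor FOXM1. Human cardiomyocytes mostly leave the cell cycle around birth, while those made from stem cells are immature and a part of them, like any non-myocyte in the culture, can still divide.

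A few promoters of the members are shown because the S-phase and mitotic classes differed in the motifs found there. Windows of 300 bases, from 250 before to 50 after each annotated start, were available in a RefSeq promoter table (build GRCh38.p14) for 10 of the 13 S-phase members and 24 of the 30 mitotic members. On both strands, 3 motifs were searched. The first is the cell cycle homology region, TTTGAA, the element that the MuvB complexes bind. The second is the CCAAT box, CCAAT, and the third is any of the E2F octamers TTTCCCGC, TTTGGCGC, TTTCGCGC and TTTGCCGC. The 160 bases before the start follow, 5′ to 3′ in the direction of the gene, with these motifs in capitals and neighbouring motifs allowed to overlap.

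PLK1, chr16:23678729-23678888, plus strand: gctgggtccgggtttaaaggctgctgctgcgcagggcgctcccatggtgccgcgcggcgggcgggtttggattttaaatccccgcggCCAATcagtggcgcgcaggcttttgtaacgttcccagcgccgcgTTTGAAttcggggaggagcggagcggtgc
CCNB2, chr15:59104986-59105145, plus strand: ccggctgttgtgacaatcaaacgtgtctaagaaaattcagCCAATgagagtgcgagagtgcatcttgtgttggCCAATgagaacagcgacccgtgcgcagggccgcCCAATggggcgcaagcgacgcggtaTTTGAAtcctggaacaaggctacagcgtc
MKI67, chr10:128126424-128126583, minus strand: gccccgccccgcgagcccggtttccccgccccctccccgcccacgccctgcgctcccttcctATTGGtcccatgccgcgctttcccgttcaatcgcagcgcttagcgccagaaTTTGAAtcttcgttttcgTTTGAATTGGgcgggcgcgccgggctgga
KIF23, chr15:69414189-69414348, plus strand: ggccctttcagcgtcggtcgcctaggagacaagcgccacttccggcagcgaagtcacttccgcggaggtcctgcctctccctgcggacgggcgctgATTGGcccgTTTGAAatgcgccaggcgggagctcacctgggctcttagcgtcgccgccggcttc
MCM6, chr2:135876444-135876603, minus strand: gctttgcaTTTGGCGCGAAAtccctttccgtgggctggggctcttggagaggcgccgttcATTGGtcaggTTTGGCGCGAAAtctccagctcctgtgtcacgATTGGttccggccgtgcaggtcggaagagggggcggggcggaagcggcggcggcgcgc
E2F1, chr20:33686386-33686545, minus strand: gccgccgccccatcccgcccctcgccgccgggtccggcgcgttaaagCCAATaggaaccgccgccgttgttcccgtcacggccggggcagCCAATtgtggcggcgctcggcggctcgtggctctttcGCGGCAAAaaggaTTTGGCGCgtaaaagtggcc
TYMS, chr18:657493-657652, plus strand: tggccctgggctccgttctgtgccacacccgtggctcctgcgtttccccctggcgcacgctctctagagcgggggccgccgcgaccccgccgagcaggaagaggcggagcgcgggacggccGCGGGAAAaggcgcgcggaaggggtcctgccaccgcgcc

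In the mitotic promoters of PLK1 and CCNB2 the element TTTGAA begins 29 bases before the annotated start, and in MKI67 copies begin 47 and 29 bases before it. The last of these runs into a CCAAT box read on the other strand. MCM6 has 4 E2F matches in overlapping pairs and E2F1 has 2, while TYMS has 1. TTTGAA was found in 17 of 24 mitotic members and in 0 of 10 S-phase members. Counted by window, since some genes have several, 19 of 27 mitotic windows (70.4%) and 0 of 14 S-phase windows held it, against 15.2% of the 35116 windows of the whole table. An E2F octamer was found in 3 of 24 mitotic members and in 9 of 10 S-phase members, RRM2 being the S-phase member without a match. By window that was 4 of 27 (14.8%) for mitotic and 9 of 14 (64.3%) for S-phase members, against 3.31% of all windows. The CCAAT box stood in 77.8% of mitotic and 78.6% of S-phase windows, against 34.6% of all windows. These matches are letters in a window and not measured binding sites.

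The shallowest library had 19.1 M counts, the median 24.1 M and the deepest 31 M. Technical libraries were added up for each biological replicate, and these 6 sums held 44.5 to 57.5 M counts. Levels are in CPM, that is, counts scaled to the library total and to edgeR's TMM factors, and a value given for a replicate is that of its sum. The labels do not say whether biological replicates were separate differentiations or what separates technical libraries, so every p-value refers to the spread among these particular samples, which may be technical. Replicates with the same number on the 2 scaffolds deviated together across all genes. Over the 43 members number 2 gave r = 0.356, number 3 gave r = 0.455 and number 1 gave r = -0.409, a description over genes that share their libraries. Of the unlike numbers, PEDOT replicate 1 with PVA replicate 2 gave r = 0.528 and PEDOT replicate 3 with PVA replicate 1 gave r = 0.384. The remaining unlike numbers gave -0.77 to 0.0785. The pairing by number thus rests on all genes and was not borne out by the members alone. Same-numbered replicates are called pair 1, pair 2 and pair 3 here.

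Per length of exon, the members differed widely in level. PCNA, the sliding clamp of DNA polymerase, was highest at 24.7 CPM per kilobase, followed by the helicase subunit MCM3 at 17.9 and the thymidylate synthase TYMS at 13.9. The lowest were the microtubule bundling proteins NUSAP1 at 0.127 and PRC1 at 0.145 CPM per kilobase. In the table's own annotation another gene on the same strand shares 81.4% of the exon bases of NUSAP1 and 57.6% of those of PRC1. Reads in shared exons were not assigned under the counting options in the file header, so these 2 levels are uncertain and too low by an unknown amount. Shares of 10.2% in BUB1B and 7.08% in CENPA were smaller, and the other 39 members shared no exon base on their strand.

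The PEDOT and PVA groups overlapped in every member, and no member passed the test of the scaffold. Summed over the 13 S-phase members, the level was 294, 343 and 479 CPM in PEDOT replicates 1, 2 and 3, against 367, 369 and 469 CPM in PVA replicates 1, 2 and 3. Summed over the 30 mitotic members, it was 253, 375 and 673 CPM in PEDOT replicates 1, 2 and 3, against 515, 409 and 608 CPM in the PVA replicates. The mitotic sum of PEDOT replicate 1 was the lowest and that of PEDOT replicate 3 the highest, so the PVA range lay inside the PEDOT range. The mitotic sum was 0.862, 1.09 and 1.40 times the S-phase sum in PEDOT replicates 1, 2 and 3, against 1.40, 1.11 and 1.30 times in the PVA replicates. In bulk RNA, fewer cells in the cycle and less of these transcripts in each cell cannot be told apart.

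**Figure D1:**
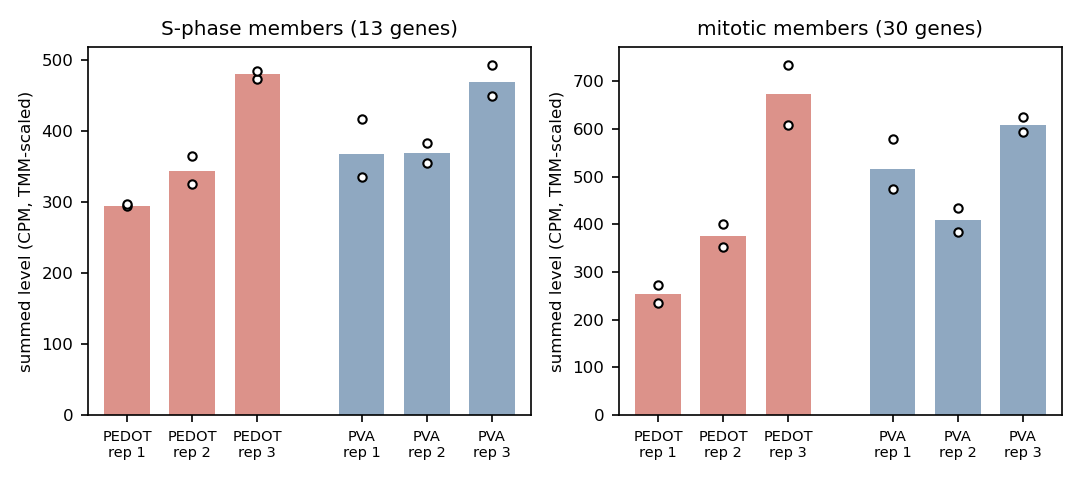
Summed level of the 13 S-phase members (left) and of the 30 mitotic members (right) in CPM, PEDOT replicates in red and PVA replicates in blue. Bars are the sums of both technical libraries and circles the libraries themselves; the mitotic bars run between 253 CPM in PEDOT replicate 1 and 673 CPM in PEDOT replicate 3.

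With the scaffold as the only term, edgeR's quasi-likelihood test on the 6 sums called 0 of 43 members, where it called 0 of 21298 genes (0%), and the adjusted p was 1 for each member. An unadjusted p under 0.05 was reached by 190 of 21298 genes and by 0 of 43 members, and DESeq2 also called 0 genes. With so few genes reaching it, the count of 0 does not set the members apart. In this fit, differences between replicate numbers count as spread. The fitted difference was below 0 in 41 of 43 members, in 12 of 13 S-phase and 29 of 30 mitotic members, where it was below 0 in 11049 of 21298 genes. The members share the same 6 sums, so they are not separate observations. The median log2 fold change of PEDOT over PVA was -0.12 for S-phase members and -0.25 for mitotic members, beside -0.01 for all genes tested. No member had its 3 PEDOT sums all below the 3 PVA sums, an order found in 2.31% of genes. With the replicate number as a block, 0 of 43 members were called among 57 genes (0.268%), and 12 members had an unadjusted p under 0.05, 1 S-phase and 11 mitotic, where 1771 of all genes (8.32%) did.

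The members with the smallest p in this test were RRM2, CDT1 and CDC6 among the S-phase genes and BIRC5, UBE2C and FOXM1 among the mitotic genes. RRM2, the small subunit of the ribonucleotide reductase that makes DNA precursors, averaged 16.1 ± 9.93 CPM on PEDOT and 23.5 ± 4.96 CPM on PVA (SD, n = 3 each). On the log2 scale PEDOT over PVA was -0.55 ± 0.42 (SE), and -0.68 ± 0.17 in the blocked fit, where edgeR's adjusted p was 0.174. CDT1, which loads the replicative helicase at origins, averaged 5.84 ± 1.99 CPM on PEDOT and 6.68 ± 1.71 CPM on PVA. CDC6, its partner in loading, averaged 9.83 ± 3.09 CPM on PEDOT and 11.1 ± 2.57 CPM on PVA. BIRC5 encodes survivin, a part of the chromosomal passenger complex, and averaged 7.59 ± 3.51 CPM on PEDOT and 9.99 ± 1.38 CPM on PVA. UBE2C, the ubiquitin-conjugating enzyme of the anaphase-promoting complex, averaged 4.78 ± 2.85 CPM on PEDOT and 6.62 ± 1.55 CPM on PVA. FOXM1, the transcription factor of late cell cycle genes, averaged 10.7 ± 5.60 CPM on PEDOT and 13.8 ± 2.62 CPM on PVA. In each of these 6 genes the groups overlapped, and the SD on PEDOT exceeded that on PVA. The members above 0 were E2F1, with 11 ± 2.43 CPM on PEDOT and 10.8 ± 0.663 CPM on PVA, and PRC1, with 0.815 ± 0.107 CPM on PEDOT and 0.792 ± 0.0872 CPM on PVA.

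These medians rested on a few replicates. Without PEDOT replicate 1 the medians were 0.05 for S-phase and 0.03 for mitotic members, and without PVA replicate 3 they were 0.03 and -0.08. Without PEDOT replicate 3 they were -0.36 and -0.74, without PEDOT replicate 2 they were -0.07 and -0.13, and without PVA replicate 2 they were -0.18 and -0.39. With the block, leaving out pair 3 gave 19 called members among 284 genes, where leaving out pair 1 or pair 2 gave 0 members. The fit without pair 3 has 4 sums and 1 residual degree of freedom for each gene, and edgeR's prior degrees of freedom were infinite. Its p-values thus rest on a spread shared across genes and not on that of each member.

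The scaffold difference was not the same in the 3 pairs. In pair 1 all 43 members were lower on PEDOT under each of the 4 scalings tried, and the mitotic members by more at the median than the S-phase members. The median log2 difference in pair 1 was -0.33 for S-phase members and -1.13 for mitotic members, with ranges of -1.48 to -0.06 and of -1.65 to -0.27. In pair 2 the median was -0.09 for S-phase and -0.12 for mitotic members, and 34 of 43 members were below 0. In pair 3 it was 0.00 for S-phase and 0.09 for mitotic members, and 13 of 43 members were below 0. The shares of all tested genes below 0 were 50.4%, 52.9% and 49.9% in pairs 1, 2 and 3. The order of the 3 medians in each class was the same under the other scalings tried, and with upper-quartile scaling 27 members were below 0 in pair 2.

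**Figure D2:**
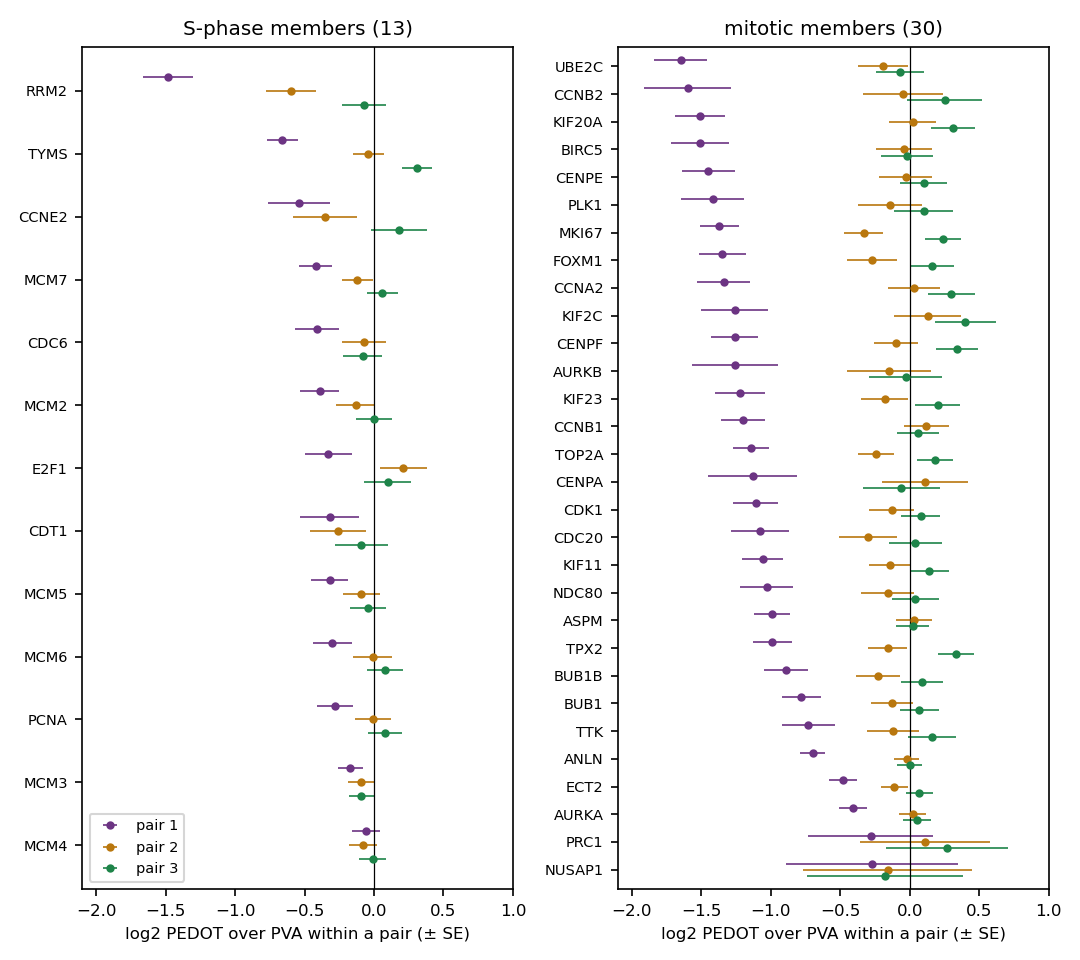
Log2 difference of PEDOT over PVA within pair 1 (purple), pair 2 (orange) and pair 3 (green) for each S-phase member (left) and mitotic member (right). Bars are standard errors over technical libraries; all 43 purple points lie below 0, down to -1.65 in UBE2C, while pair 2 spans -0.60 to 0.21 and pair 3 spans -0.18 to 0.40.

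Whether the difference depended on the pair was tested over the 12 libraries as an interaction of scaffold and replicate number, so its p-values measure the spread between technical libraries and not between cultures. Of 18546 genes, 56 passed (0.302%), and 18 of these 56 were members, 2 S-phase and 16 mitotic. All 18 were lower on PEDOT in pair 1, which held their largest decrease, while 14 were below 0 in pair 2 and 4 in pair 3. Of the other 38 genes that passed, 5 belonged to a list of further mitosis genes, 1 was the cardiomyocyte gene MYH7 and 32 were in no list used here. DESeq2's likelihood ratio test called 22 members among 200 genes.

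The spread behind this test comes from pairs of technical libraries, which the labels number 1 to 3 with 2 present for each replicate, and its count moved when a library was left out. It was 1 member among 9 genes called without library 2 of PEDOT replicate 1, and 7 among 13 without library 3 of that replicate. It was 5 among 17 without library 1 of PEDOT replicate 2 and 10 among 38 without library 1 of PEDOT replicate 3. It was 1 among 7 without library 3 of PVA replicate 1, 10 among 25 without library 2 of PVA replicate 2 and 6 among 17 without library 3 of PVA replicate 2. Without each of the other 5 libraries it was 13 to 20 members among 26 to 120 genes.

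MKI67 (chr10:128096659-128126423, minus strand), whose protein Ki-67 coats mitotic chromosomes and marks proliferating cells, had 21.8 and 27.7 CPM in the libraries of PEDOT replicate 1, 42.4 and 35.6 CPM in those of PEDOT replicate 2 and 78.4 and 66.1 CPM in those of PEDOT replicate 3. On PVA it had 56.4 and 71.8 CPM in replicate 1, 51.7 and 46.2 CPM in replicate 2 and 57.9 and 64.8 CPM in replicate 3. The PEDOT libraries of replicates 1 and 2 all lay below the 6 PVA libraries, while of the replicate 3 libraries on PEDOT one lay above the PVA range and the other inside it. Its log2 differences were -1.37 ± 0.14, -0.33 ± 0.14 and 0.24 ± 0.13 in pairs 1, 2 and 3 (SE over technical libraries), and the adjusted p of the interaction was 0.00397 in edgeR.

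KIF20A (chr5:138178719-138187723, plus strand), a kinesin of the dividing cell's midzone, had 6.22 and 7.88, 16.2 and 13.7, and 28.5 and 21.3 CPM in the libraries of PEDOT replicates 1, 2 and 3. On PVA it had 17.9 and 22.6, 16.2 and 13.4, and 18.4 and 21.8 CPM in the libraries of replicates 1, 2 and 3. PEDOT replicate 1 held the 2 lowest libraries, and the log2 difference was -1.51 ± 0.18 in pair 1, beside 0.02 ± 0.17 in pair 2 and 0.31 ± 0.16 in pair 3 (edgeR adjusted p = 0.00742). TOP2A (chr17:40388525-40417896, minus strand), the topoisomerase that untangles sister DNA, had 21.1 and 29.4, 38.7 and 36.2, and 85.1 and 70.7 CPM in the libraries of PEDOT replicates 1, 2 and 3. On PVA it had 51.1 and 60.9, 45.8 and 42.7, and 67.4 and 69.7 CPM in the libraries of replicates 1, 2 and 3. As in MKI67, all 4 libraries of PEDOT replicates 1 and 2 lay below all PVA libraries. The differences were -1.14 ± 0.13, -0.24 ± 0.13 and 0.18 ± 0.13 (edgeR adjusted p = 0.0174).

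UBE2C had the largest decrease in pair 1 among the members. It had 1.72 and 2.46, 4.24 and 4.68, and 7.87 and 7.68 CPM in the libraries of PEDOT replicates 1, 2 and 3, against 6.29 and 7.03, 5.13 and 5.02, and 8.84 and 7.47 CPM on PVA. The level on PEDOT was 31.8% of that on PVA in pair 1, and the differences were -1.65 ± 0.19, -0.19 ± 0.18 and -0.07 ± 0.17 (edgeR adjusted p = 0.0257).

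The mitotic kinase CDK1 and its cyclins also differed most in pair 1. CDK1 had 6.18, 8.81 and 19.1 CPM in PEDOT replicates 1, 2 and 3, against 13.2, 9.64 and 18.1 CPM in PVA replicates 1, 2 and 3. Its partner cyclin B1, CCNB1, had 6.85, 11.4 and 16.2 CPM on PEDOT, against 15.4, 10.7 and 15.6 CPM on PVA. Cyclin A2, CCNA2, which acts in S phase and early mitosis, had 6.53, 11.5 and 21.9 CPM on PEDOT, against 16.1, 11.4 and 17.9 CPM on PVA. In pair 1 the PEDOT level was 46.2% of the PVA level for CDK1, 43.5% for CCNB1 and 39.5% for CCNA2, and in pairs 2 and 3 the log2 differences of these 3 genes lay between -0.13 and 0.30. All 3 passed the interaction test, with adjusted p of 0.0451 for CDK1, 0.0257 for CCNB1 and 0.0257 for CCNA2 in edgeR.

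BIRC5 also passed at an edgeR adjusted p of 0.0438, and FOXM1 at 0.0295. BIRC5 had 3.82, 8.21 and 10.7 CPM in PEDOT replicates 1, 2 and 3, against 10.7, 8.40 and 10.8 CPM in PVA replicates 1, 2 and 3. FOXM1 had 6.22, 8.90 and 17 CPM on PEDOT, against 15.5, 10.8 and 15.2 CPM on PVA. The kinases PLK1 and AURKB, which act on spindle and centromere, had their largest difference in pair 1 too and did not pass. PLK1 had 4.06, 6.31 and 11.5 CPM on PEDOT, against 10.6, 6.92 and 10.7 CPM on PVA (edgeR adjusted p = 0.100), and AURKB had 1.85, 3.36 and 6.17 CPM on PEDOT, against 4.29, 3.72 and 6.27 CPM on PVA (edgeR adjusted p = 0.36). AURKB had as few as 31 counts in a library, which widens its error.

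The other 7 mitotic members that passed were the kinetochore genes CENPE and CENPF, the spindle genes KIF11, TPX2 and ASPM, and KIF23 and ANLN of cytokinesis. In pair 1 their level on PEDOT was between 36.7% (CENPE) and 61.8% (ANLN) of that on PVA. Among the mitotic members that did not pass were CCNB2, CDC20, the checkpoint kinases BUB1, BUB1B and TTK, and the centromeric histone CENPA. TTTGAA stood in the promoter windows of 8 of 12 mitotic members that passed and of 9 of 12 that did not.

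Among the S-phase members, RRM2 and TYMS passed and the helicase subunits did not. RRM2 (chr2:10120698-10211725, plus strand) had 7.24 and 9.79, 12.9 and 11.7, and 30.2 and 24.4 CPM in the libraries of PEDOT replicates 1, 2 and 3, against 19.7 and 28.4, 20.3 and 17.1, and 28.1 and 29.1 CPM on PVA. It was low in replicates 1 and 2 on PEDOT and within the PVA range in the libraries of PEDOT replicate 3 or just above it. The differences were -1.48 ± 0.18, -0.60 ± 0.18 and -0.07 ± 0.16 in pairs 1, 2 and 3 (edgeR adjusted p = 0.0438). TYMS (chr18:657653-673578, plus strand), which makes the thymidine nucleotide, had 24.6, 29.9 and 43.5 CPM in PEDOT replicates 1, 2 and 3, against 38.3, 31.2 and 35.1 CPM on PVA. Its differences were -0.66 ± 0.11, -0.04 ± 0.11 and 0.31 ± 0.11 (edgeR adjusted p = 0.0326).

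The 6 subunits of the replicative helicase, MCM2 to MCM7, differed between scaffolds in pair 1 by -0.42 to -0.06 on the log2 scale and in pair 3 by -0.09 to 0.08. MCM2 had 21.2, 29.5 and 37.3 CPM in PEDOT replicates 1, 2 and 3, against 27.3, 32.4 and 37.1 CPM in PVA replicates 1, 2 and 3. MCM5 had 20.3, 24.7 and 34.3 CPM on PEDOT, against 24.9, 26.3 and 35.1 CPM on PVA. PCNA had 27.5, 32.7 and 41.9 CPM on PEDOT, against 33.2, 33.4 and 39.4 CPM on PVA. In these 3 genes replicate 3 was the highest on both scaffolds, and the adjusted p of the interaction was 0.603 for MCM2, 0.703 for MCM5 and 0.591 for PCNA in edgeR. The licensing factor CDC6 had 7.36, 8.83 and 13.3 CPM on PEDOT, against 9.66, 9.51 and 14 CPM on PVA, and E2F1, the transcription factor of S-phase genes, had 8.20, 12.5 and 12.3 CPM on PEDOT, against 10.1, 10.9 and 11.5 CPM on PVA. Neither passed, with adjusted p of 0.667 for CDC6 and 0.537 for E2F1 in edgeR.

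**Figure D3:**
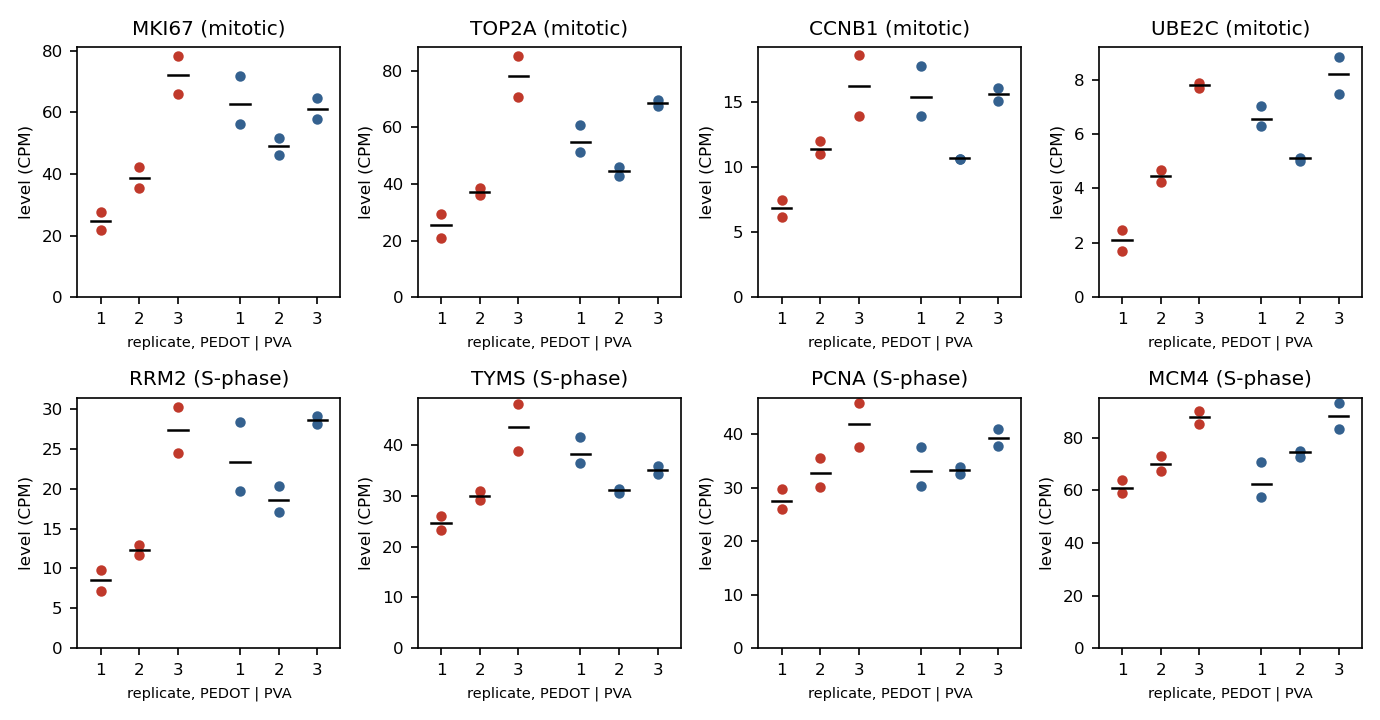
Level in CPM of 4 mitotic members (top) and 4 S-phase members (bottom) in each of the 12 libraries, PEDOT in red and PVA in blue, by replicate number. Lines mark the level of the sum of both technical libraries. In all 8 genes PEDOT replicate 1 is the lowest and PEDOT replicate 3 the highest of the PEDOT sums, with 24.9 and 72.3 CPM in MKI67 and 60.8 and 88.0 CPM in MCM4.

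The members differed by replicate number more often than by scaffold. In the blocked fit on the 6 sums, 32 of 43 members passed edgeR's test of replicate number, 11 of 13 S-phase and 21 of 30 mitotic members, where 31.8% of all genes passed; with scaling by library size alone 24 members passed. Replicate 3 was called higher than replicate 2 in 26 members (10 S-phase and 16 mitotic), against 11.9% of genes. It was called higher than replicate 1 in 30 members (11 S-phase and 19 mitotic), against 6.79% of genes. No member was called lower in replicate 3, where 7.57% of genes were called lower than in replicate 2 and 6.42% lower than in replicate 1. Replicate 2 was called higher than replicate 1 in 2 of 43 members, MCM2 and MCM4, against 13.3% of genes, and 13 members were below 0 in that comparison. The median log2 difference of replicate 3 over replicate 2 was 0.44 for S-phase and 0.76 for mitotic members, that of replicate 3 over replicate 1 was 0.62 and 0.79, and that of replicate 2 over replicate 1 was 0.12 and 0.07. These values average both scaffolds, which differed. The mean log2 CPM of mitotic members in replicates 1 and 3 was 2.46 and 3.86 on PEDOT, but 3.51 and 3.74 on PVA. For S-phase members it was 4.01 and 4.82 on PEDOT, and 4.42 and 4.78 on PVA. The replicate numbers carry no order of dose or time.

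**Figure D4:**
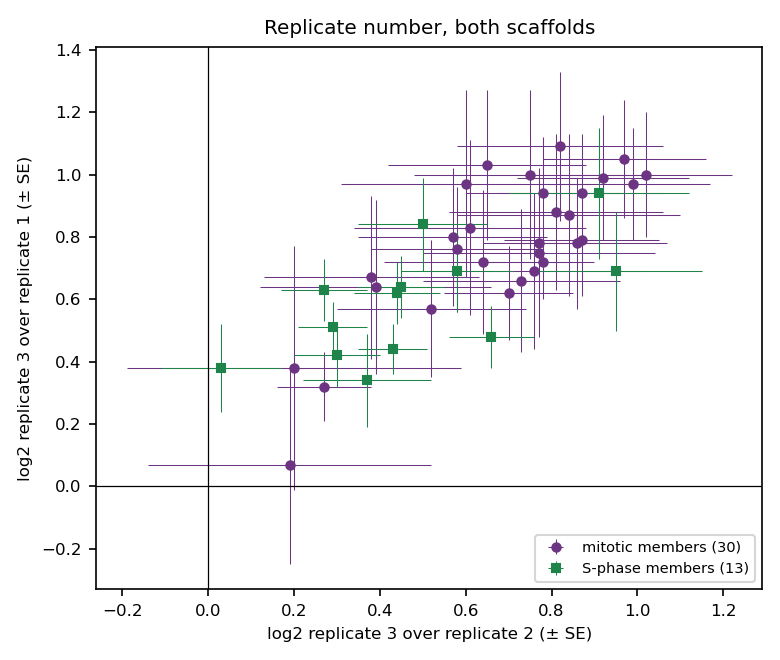
Log2 difference of replicate 3 over replicate 2 (horizontal) and of replicate 3 over replicate 1 (vertical) for each member, averaged over both scaffolds, with standard errors. Mitotic members are purple circles and S-phase members green squares; all 43 points lie above 0 on both axes, and with scaling by library size alone 1 member is below 0 on the horizontal axis.

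The smallest p by replicate number belonged to the helicase subunits MCM6, MCM5 and MCM4 among the S-phase members and to the cytokinesis and spindle genes ECT2, ANLN and ASPM among the mitotic members. MCM6 had 27.5, 26.5 and 43.5 CPM in PEDOT replicates 1, 2 and 3, and 33.3, 27.0 and 40.8 CPM in PVA replicates 1, 2 and 3. Replicate 3 was the highest on each scaffold, with a log2 difference over replicate 2 of 0.66 ± 0.10 (SE; edgeR adjusted p = 0.000314). MCM4 had 60.8, 69.9 and 88.0 CPM on PEDOT and 62.6, 74.4 and 88.1 CPM on PVA, so same-numbered replicates lay close to each other. ECT2, which is needed for cytokinesis, had 15.3, 16.7 and 30.6 CPM on PEDOT and 21.2, 18.2 and 29.1 CPM on PVA, with 0.78 ± 0.12 for replicate 3 over replicate 2 (edgeR adjusted p = 0.00041). ANLN, the furrow scaffold anillin, had 30.7, 39.2 and 67.4 CPM on PEDOT and 49.2, 39.9 and 67.3 CPM on PVA. ASPM, a spindle pole protein, had 13, 18.6 and 36.9 CPM on PEDOT and 25.6, 18.3 and 36.3 CPM on PVA. In these 3 mitotic genes replicate 1 was below replicate 2 on PEDOT and above it on PVA, while replicate 3 was highest on both.

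DESeq2's likelihood ratio test called 19 of 43 members by replicate number among 5257 genes, and edgeR called 17 of 43 among 6020 genes without PEDOT replicate 3. The main fit called 32 of 43 among 6776 genes (31.8%). In these settings the members thus fell by more, in proportion, than all genes did, and lay nearer the share of all genes.

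Genes of the same pathway that are not members were read from lists. None of the genes of these lists passed the scaffold test, with or without the block. Of 46 other mitosis genes, 46 were lower on PEDOT in pair 1, with a median log2 difference of -1.03, beside -0.08 in pair 2 and 0.09 in pair 3. The interaction test called 5 of them, namely the kinesin KIF14, ARHGAP11A, the centromeric histone chaperone HJURP, CDCA3 and HMMR. The last 2 lie outside the 3 genes of smallest p and were named after their values were seen. KIF14 had 3.10, 6.22 and 10.1 CPM in PEDOT replicates 1, 2 and 3, against 7.84, 5.33 and 9.36 CPM in PVA replicates 1, 2 and 3 (edgeR adjusted p = 0.0174). By replicate number 30 of the 46 passed, led by the kinetochore gene KNL1, DEPDC1 and CKAP2L. Of 32 other replication genes, 29 were lower on PEDOT in pair 1 with a median of -0.30, 0 passed the interaction test and 23 passed by replicate number, led by DTL, CLSPN and CDC7. Of all genes tested, 31.8% passed by replicate number and 0.302% passed the interaction test.

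Genes that set the decision to enter the cycle had medians near 0 in pair 1. Of 11 G1 cyclins and kinases, 0 passed the interaction test, the pair 1 median was -0.06, and 6 passed by replicate number. The counts by replicate number in these lists stand beside 31.8% of all genes. Cyclin D1, CCND1, had 148, 192 and 202 CPM in PEDOT replicates 1, 2 and 3, and 129, 200 and 206 CPM in PVA replicates 1, 2 and 3. Of 15 CDK inhibitors and arrest genes, 0 passed the interaction test and 8 passed by replicate number, with a pair 1 median of -0.05. Among them CDKN2B, an inhibitor of the G1 kinases, had 22, 0.646 and 4.66 CPM on PEDOT and 13.7, 1.2 and 5.51 CPM on PVA, so replicate 2 was the lowest on both scaffolds. BTG2, an antiproliferative gene, had 147, 101 and 181 CPM on PEDOT and 157, 120 and 186 CPM on PVA. CDKN2A had 1.30, 0.0646 and 0.638 CPM on PEDOT and 0.801, 0.0218 and 0.501 CPM on PVA. Of 18 pocket proteins, E2F factors and MuvB subunits, 0 passed the interaction test. By replicate number 6 passed, beside 31.8% of all genes, with the smallest p in TFDP2, LIN9 and E2F7. Of 17 genes of the anaphase-promoting complex and its regulators, 0 passed the interaction test. By replicate number 4 passed, beside the same share of all genes, with FBXO5, ANAPC16 and CDC27 at the smallest p.

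The summed levels of cell type markers differed by replicate number and, for several lists, between scaffolds in the same direction in all 3 pairs. All 14 cardiomyocyte markers had reads, with summed levels of 71193, 93115 and 87265 CPM in PEDOT replicates 1, 2 and 3, against 61866, 80493 and 83468 CPM in PVA replicates 1, 2 and 3. The 10 fibroblast markers summed to 6765, 846 and 3627 CPM on PEDOT, against 3702, 820 and 3230 CPM on PVA, so replicate 2 was lowest on both scaffolds and PEDOT replicate 1 was highest. The 10 smooth muscle and pericyte markers summed to 2277, 1234 and 1716 CPM on PEDOT, against 2587, 1532 and 2282 CPM on PVA. The cardiomyocyte and fibroblast sums were higher on PEDOT in each pair and the smooth muscle and pericyte sums lower. These sums weigh abundant genes most. Of the 14 cardiomyocyte markers, 2, 4 and 5 were lower on PEDOT in pairs 1, 2 and 3, and of the 9 fibroblast markers tested, 1, 1 and 3 were. Of the 10 smooth muscle and pericyte markers, only 2 were lower on PEDOT in pair 1, with a median log2 difference of 0.10. In pairs 2 and 3, 8 and 7 of them were lower. With the replicate block, edgeR called the cardiomyocyte marker MYH7 higher on PEDOT (adjusted p = 0.0382) and the smooth muscle and pericyte markers RGS5 (adjusted p = 0.00795) and ACTA2 (adjusted p = 0.0334) lower, each in the same direction in 3 of 3 pairs. Their log2 differences were 0.95 ± 0.17 for MYH7, -0.46 ± 0.06 for RGS5 and -0.40 ± 0.07 for ACTA2 (SE). The value for MYH7 is an average over pairs that differed, since MYH7 also passed the interaction test over technical libraries. These genes and GAP43 were named after their values were seen, and without the block none was called.

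**Figure D5:**
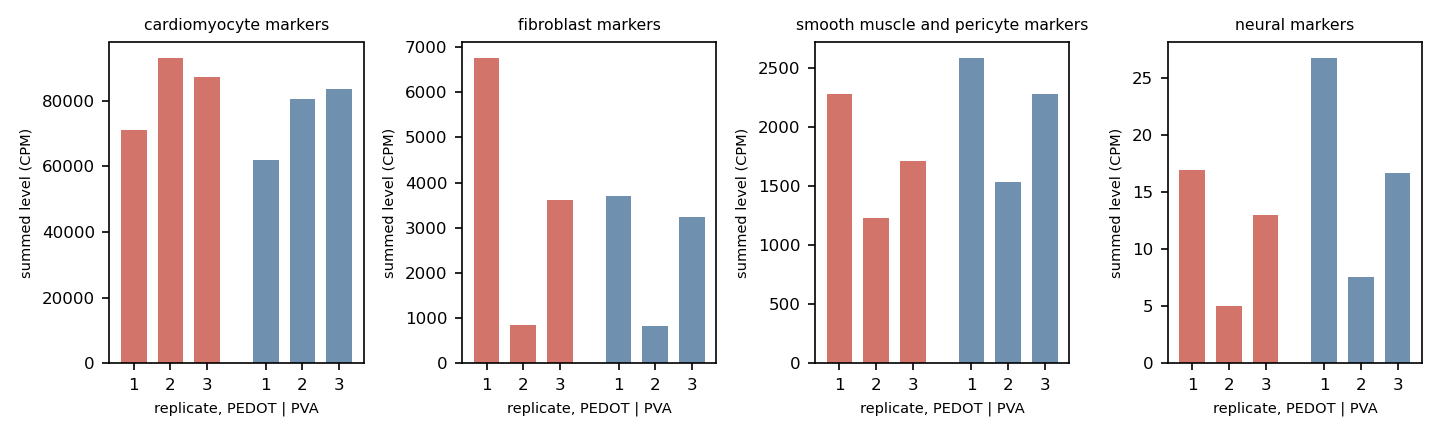
Summed level in CPM of the cardiomyocyte, fibroblast, smooth muscle and pericyte, and neural marker lists in each replicate, PEDOT in red and PVA in blue. Fibroblast markers are at 6765 CPM in PEDOT replicate 1 and at 846 and 820 CPM in replicate 2 of PEDOT and PVA.

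The remaining lists were low. Endothelial markers summed to 20.4 to 34.4 CPM on PEDOT and 31 to 33.9 CPM on PVA, and epicardial markers to 97.0 to 138 CPM on PEDOT and 91.7 to 152 CPM on PVA. Endoderm markers summed to 6.20 to 15.3 CPM on PEDOT and 6.11 to 14.9 CPM on PVA. Neural markers summed to 17, 5.06 and 13 CPM in PEDOT replicates 1, 2 and 3, against 26.8, 7.57 and 16.7 CPM in PVA replicates 1, 2 and 3. The neural sum was thus lower on PEDOT in each pair, but only 4 of the 8 neural markers passed the filter on low counts. Of these 4, 4, 2 and 4 were lower on PEDOT in pairs 1, 2 and 3. Of the neural markers GAP43 was called lower with the block, at a log2 difference of -0.89 ± 0.17 (SE; edgeR adjusted p = 0.0444). Pluripotent markers summed to 10.6 to 14.7 CPM on PEDOT and 11.2 to 16.7 CPM on PVA. The part of other cell types in the differences of the cell cycle genes was not tested.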

How the data were processed

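Ribodepleted total RNA was measured in 12 libraries. The deposited values are unnormalized counts of read pairs for each gene name, from featureCounts 2.0.1 (paired, reversely stranded) with GENCODE 33, per the file headers; no option there assigns reads in exons of several genes or with several placements. FastQC, STAR, featureCounts and the build hg38, beside DESeq2 and edgeR, are named in the submitters' processing notes; the aligner version is not given in the sources used here. Gene coordinates and exon lengths are those of the table on hg38, and 0 sample columns were left unused. RefSeq promoters are from GRCh38.p14, without an entry for MCM4, MCM5, CCNE2, AURKA, BIRC5, TPX2, FOXM1, UBE2C and TTK.

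Technical libraries were summed to 6 sums, the unit of the scaffold comparison. filterByExpr (minimum count 10, total 15) and TMM scaling preceded a two-sided quasi-likelihood F test in edgeR 4.0.16 (R 4.3.3), with Benjamini-Hochberg adjustment over all genes tested and a threshold of 0.05. The scaffold was the only term; replicate number was tested beside the scaffold, and their interaction over 12 libraries. Standard errors are the log2 difference over the root of F. DESeq2 1.42.0, other scalings and filters, the replicate block and leaving out replicates or libraries were the alternatives.

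Same-numbered sums deviated together across genes (r = 0.678, 0.703 and 0.503 for pairs 1, 2 and 3), so the numbers were taken to pair the samples; no label states a shared culture. The members, lists and tests were chosen with earlier results of these data known. Named genes are a panel of 17 members, the 3 of smallest p in each class and fit, and up to 3 called genes of smallest p in each pathway list. The procedure was tested on simulated counts.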

Additional observations from a re-analysis of the deposited data

Results flagged for a closer look

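In 18 members the scaffold difference itself differed between the 3 pairs, by edgeR's interaction test over the 12 libraries with adjustment over 18546 genes; the spread behind these values is between technical libraries. All 18 were lower on PEDOT in pair 1, and in 14 of them the difference was below 0 in pair 2 and in 4 it was below 0 in pair 3. Of the S-phase members, the adjusted p was 0.0438 for RRM2 and 0.0326 for TYMS. For genes of mitotic chromosomes and of the control of mitosis it was 0.00397 for MKI67, 0.0174 for TOP2A, 0.0257 for CCNB1, 0.0257 for CCNA2, 0.0451 for CDK1, 0.0295 for FOXM1 and 0.0257 for UBE2C. For genes of kinetochore and spindle it was 0.0438 for BIRC5, 0.0291 for CENPE, 0.0174 for CENPF, 0.0438 for KIF11, 0.0257 for TPX2 and 0.0287 for ASPM. For genes of cytokinesis it was 0.00742 for KIF20A, 0.0438 for KIF23 and 0.0438 for ANLN. CENPF, which builds the outer kinetochore, had 10.3, 20.8 and 37.3 CPM in PEDOT replicates 1, 2 and 3, against 24.1, 22.4 and 29.6 CPM in PVA replicates 1, 2 and 3. KIF11, the kinesin that pushes spindle poles apart, had 7.52, 11 and 23.9 CPM on PEDOT, against 15.3, 12.3 and 21.6 CPM on PVA. Why pair 1 differed from pairs 2 and 3 was not tested.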

How the results depend on the processing

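Calls by scaffold of members were 0 in every alternative but the one without pair 3 under the block. The replicate block gave 57 genes called by scaffold and 0 members. The block on 12 libraries gave 194 genes, but it counts technical libraries as separate samples, so its p-values do not measure the spread between biological replicates. DESeq2 with the block gave 96, and the block on the lower-numbered or the higher-numbered technical libraries 16 or 4. These last 3 settings were chosen after seeing the data. The block changed no call of a member. Leaving out replicates, pairs or libraries gave 0 to 19 members and 0 to 284 genes by scaffold, class medians of -0.36 to 0.05 (S-phase) and -0.74 to 0.03 (mitotic), 17 to 41 members and 4538 to 7300 genes by replicate number, and 1 to 20 members and 7 to 120 genes by interaction. By replicate number DESeq2 called 19 members among 5257 genes. By interaction DESeq2 called 200 genes, testing every gene with a count gave 652, and a mean CPM of 1 or more gave 28. Fold changes of single genes near 0 reversed when samples were left out, with ranges of -0.35 to 0.05 for MCM2, -0.36 to 0.04 for MCM5, -0.23 to 0.08 for PCNA, -0.36 to 0.13 for TYMS, -0.45 to 0.04 for CDC6, -0.09 to 0.20 for E2F1, -0.83 to 0.04 for TOP2A, -0.87 to 0.03 for CDK1, -0.75 to 0.16 for CCNA2 and -0.61 to 0.08 for CCNB1. E2F1 was -0.11 with the lower-numbered technical libraries and -0.13 with the block added. The cause of these changes was not tested. Low counts limit NUSAP1 most, which had as few as 5 in a library. Another gene on the same strand shares 81.4% of its exon bases, where reads were not assigned.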
